A study of Mus musculus with 2 samples.

Results

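Genes that stretch over at least 500 kilobases (kb) of DNA were followed in the mouse embryonic telencephalon, in tissue with H2AZ conditionally deleted (H2AZ cKO) and in its floxed control (H2AZ fl/fl). They are the autosomal genes whose deposited end lies at least 500 kb past their start and whose reads sum to at least 50 over both libraries. Of 19202 genes in the deposited table, 196 autosomal genes met the length minimum and 158 of these also met the count minimum. A further 16 were left out by a fixed list of names and a stretch of chromosome 3, which leaves 142 long genes. The values of these 16 are not given here. Neither part of the rule uses the difference between the genotypes.

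A gene of this size is almost all intron. RNA polymerase II has to travel through all of it before a transcript is complete, so output depends on elongation factors, on topoisomerases that relieve the twist of the DNA and on proteins that keep the polymerase from stopping early inside introns. Genes of this kind are known for being used in neurons, where many encode synaptic adhesion molecules, ion channels and guidance proteins. H2A.Z, the histone variant under study, sits around transcription start sites. Setd2, named in the series title, places trimethylation of histone H3 at lysine 36 over the body of transcribed genes.

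Both samples were telencephalic tissue (cerebral cortex in the extraction protocol) at embryonic day 12 from mice of the C57BL/6 background. In the H2AZ cKO a floxed H2AZ allele had been deleted by a Cre whose driver no source used here gives, and in H2AZ fl/fl both floxed copies were intact. There was 1 column of read counts, called a library here, for each genotype. The series text speaks of triplicates, and whether a column pools them or is 1 of them is not stated. No difference below therefore has a replicate check, and no test of the genotype was made.

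The libraries held 8839840 counts in the H2AZ cKO and 8891198 in H2AZ fl/fl. H2afz, the targeted gene, had a level of 191 CPM, its counts scaled to library size, in the H2AZ cKO, against 289 CPM in H2AZ fl/fl, a ratio of 0.661 (0.621 to 0.703). The count covers the whole gene and not the deleted part alone. For Setd2 the level was 133 CPM in H2AZ cKO tissue, against 149 CPM in H2AZ fl/fl (ratio 0.894, 0.826 to 0.968). Xist, expressed from the inactive X chromosome of females, had 6384 counts in the H2AZ cKO and 200 in H2AZ fl/fl, a ratio of 33.0 (28.7 to 38.2). A difference in sex make-up between the 2 libraries cannot be told apart from the genotype. The long genes are all autosomal, and the part of sex in their values was not tested. Every ratio is H2AZ cKO over H2AZ fl/fl after edgeR's TMM scaling, with an exact 95% binomial (Clopper-Pearson) interval in brackets for counting error alone. Log2 ratios were taken of CPM + 1, so those of genes with few counts come out too small.

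Levels of some lists of cell type markers differed between the libraries and those of others differed little. Their part in the values of the long genes was not tested. Over all 14586 tested genes, 7443 were above 0 and 7143 below. Markers of postmitotic neurons had log2 ratios above 0 for 8 of 13, with levels that added up to 7254 CPM in H2AZ cKO tissue against 7160 CPM in H2AZ fl/fl. Of 10 apical progenitor markers 8 were above 0 (2954 CPM against 2737 CPM). All 12 ventral telencephalon markers were above 0 (1889 CPM against 1451 CPM), and all 11 tested of 12 diencephalon and hypothalamus markers were below 0 (152 CPM against 251 CPM), with Nkx2-4 and Rax at 0 counts in the H2AZ cKO. All 8 tested of 9 erythroid markers were above 0 (691 CPM against 364 CPM), as were 8 of 9 microglia and macrophage markers (48.5 CPM against 34.5 CPM). Meningeal and mesenchymal markers were above 0 for 2 of 6 tested (18.7 CPM against 21.7 CPM), and endothelial markers for 1 of 6 (106 CPM against 112 CPM). In bulk tissue, fewer cells of a type and less RNA per cell cannot be told apart.

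The deposited positions match GRCm38, and by those positions the long genes have a median span of 720 kb, and 35 of them span 1 megabase (Mb) or more. Their longest annotated transcript in GENCODE M21 has a median of 18 exons and 6.45 kb, against 8 exons and 3.52 kb in the 11769 other autosomal genes at 50 counts or more. Mature sequence makes up a median of 0.839% of the span, against 14.1% in the other genes, and the longest intron of that transcript has a median of 186 kb against 6.27 kb. In the deposited Gene Ontology annotation, 33 of the 142 (23.2%) carry a cellular component term with the word synapse or synaptic, against 3.81% of the other genes, and 25 (17.6%) carry a cell adhesion process, against 3.43%. All but Snhg14, a noncoding transcript, are annotated as protein-coding. They lie on all 19 autosomes, with 13 on chromosome 1, 12 on chromosome 6 and 1 on chromosome 18.

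The label of a long gene holds for most but not for every one of the 142. RefSeq, on the same build (GRCm38.p6), gives a span for 141 of them, and for 6 it is under 500 kb. Chd1, a chromatin remodeller, spans 1690 kb in the deposited positions but 67.6 kb in both RefSeq and GENCODE M21. Fgfr2, a fibroblast growth factor receptor, has the widest deposited span, 2961 kb, which GENCODE M21 shares, and 104 kb in RefSeq. The other 4 are Slc7a11 (134 kb in RefSeq), Ntrk3 (401 kb), Zmat4 (416 kb) and Atp8a2 (439 kb). GENCODE M21 puts the span of 2 long genes under 500 kb. For 8 its widest single transcript is under 500 kb, among them Tenm3 (447 kb, with a RefSeq span of 1297 kb) and Snhg14 (256 kb). The longest spans that RefSeq also puts at 500 kb or more are those of Ptprd (2271 kb), Cntnap2 (2244 kb), Lsamp (2197 kb) and Macrod2 (1998 kb). Just inside the minimum lie Edil3 (502 kb), Dock1 (503 kb) and Car10 (504 kb), with log2 ratios of 0.04, -0.03 and -0.12. Just outside it lie Pde1c (499 kb), Dnm3 (496 kb) and Cacna1e (494 kb), with log2 ratios of 0.13, 0.19 and -0.21.

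Start regions are shown for 4 long genes that the results turn on, the teneurin genes Tenm2, Tenm3 and Tenm4 on the lower side and Lhfpl3, the highest of all. Each is the RefSeq window of 300 bases on GRCm38.p6 (250 before to 50 after a transcript start) that lies nearest to the start of the deposited gene, read along the gene's strand, with every CG dinucleotide in capitals. CG reads the same on both strands.
Tenm2, chr11:36944192-36944491, minus strand: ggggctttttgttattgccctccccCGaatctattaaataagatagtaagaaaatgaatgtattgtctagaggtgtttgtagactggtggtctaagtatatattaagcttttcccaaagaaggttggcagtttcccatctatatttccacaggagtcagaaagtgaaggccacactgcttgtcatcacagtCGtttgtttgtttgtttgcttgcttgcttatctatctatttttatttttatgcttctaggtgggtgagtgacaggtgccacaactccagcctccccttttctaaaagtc
Tenm3, chr8:48674641-48674940, minus strand: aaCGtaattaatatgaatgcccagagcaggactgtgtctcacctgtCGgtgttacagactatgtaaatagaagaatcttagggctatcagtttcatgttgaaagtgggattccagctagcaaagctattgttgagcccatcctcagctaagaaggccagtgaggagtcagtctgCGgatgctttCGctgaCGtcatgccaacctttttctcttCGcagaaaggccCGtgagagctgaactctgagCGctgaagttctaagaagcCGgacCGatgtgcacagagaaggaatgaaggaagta
Tenm4, chr7:96170994-96171293, plus strand: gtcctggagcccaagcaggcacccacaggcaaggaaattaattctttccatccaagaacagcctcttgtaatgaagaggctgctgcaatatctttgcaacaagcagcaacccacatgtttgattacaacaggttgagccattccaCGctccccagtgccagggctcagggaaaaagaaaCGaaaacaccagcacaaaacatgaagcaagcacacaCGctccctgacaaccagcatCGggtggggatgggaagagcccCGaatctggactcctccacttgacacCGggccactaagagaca
Lhfpl3, chr5:22745804-22746103, plus strand: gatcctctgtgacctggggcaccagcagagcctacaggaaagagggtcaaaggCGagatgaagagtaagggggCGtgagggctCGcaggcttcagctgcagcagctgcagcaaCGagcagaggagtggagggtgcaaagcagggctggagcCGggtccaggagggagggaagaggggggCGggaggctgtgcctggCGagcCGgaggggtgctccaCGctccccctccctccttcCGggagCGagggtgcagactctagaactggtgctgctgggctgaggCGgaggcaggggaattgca
The windows hold 2, 10, 6 and 12 CG in the order shown, against a median of 7 over all 32851 windows of the table, 94.6% of which hold at least 1. For the 111 long genes with an entry the nearest window has a median of 15, and 87 of these windows lie within 1 kb of the deposited start. That median takes 1 window per gene, while the 32851 windows come from 27025 genes and include further starts. The medians are therefore not of windows picked alike. The window of Tenm2 lies 292 kb inside the deposited gene and that of Tenm3 169 kb inside, so these genes have annotated starts far apart, and gene-level counts do not say which start was used.

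The long genes as a group stood slightly lower in the H2AZ cKO, with log2 ratios between -0.54 and 0.54. Of 142, 90 were below 0 on the log2 scale and 52 above, where 49.0% of all 14586 tested genes were below 0, as were 48.1% of the 11769 other autosomal genes at 50 counts or more. Their median log2 ratio was -0.06, against 0.01 over all tested genes. Summed, their reads came to 52732 in the H2AZ cKO and 57846 in H2AZ fl/fl, a ratio of 0.943 (0.932 to 0.954). Genes with many reads weigh most in this sum. In scaled levels the long genes summed to 6050 CPM in the H2AZ cKO against 6415 CPM in H2AZ fl/fl. The autosomal genes of 200 to 500 kb at 50 counts or more summed to 32270 CPM against 33650 CPM, and all tested genes to 1012610 CPM against 984354 CPM. All 142 reached 1 CPM in the higher library, which the minimum of 50 summed counts ensures at these depths, so none was lost to the level floor. On the CPM + 1 scale none was 1.5-fold lower, where 3.03% of all tested genes were, and none was 1.5-fold higher, where 1.92% were. Among the other autosomal genes at 50 counts or more these shares were 1.597% and 0.8837%. The ratios of CPM itself passed 1.5-fold for Ryr3 (0.637) and Atp8a2 (0.662) on the lower side and for Lhfpl3 (1.53) on the higher side.

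For some of them the counting interval excluded equality. It lay wholly below 1 for 23 long genes (11.2% of all tested genes) and wholly above 1 for 7 (12.6% of all tested genes). As shares of the 142 these are 16.2% and 4.93%, against 12.03% and 14.25% of the other autosomal genes at 50 counts or more. The 574 autosomal genes of 200 to 500 kb at 50 counts or more had 130 intervals below 1 and 38 above. Of these 574 genes 62.0% were below 0 on the log2 scale, with a median of -0.06. A lean to the lower side was thus not particular to the long genes. With scaling by total count the intervals of the 142 split 27 below and 3 above, the 3 being those of Lhfpl3, Fstl5 and Adarb2. In the authors' deposited table, 18 long genes had an adjusted p-value under 0.05 and a lower value in the knockout (12.7%, against 7.85% of all tested genes and 8.701% of the other autosomal genes at 50 counts or more). For 1 gene, Fstl5, the authors' deposited table gives such a p-value with a higher value in the knockout (4.70% of all tested genes). The authors' deposited table compares 1 column with 1 column and marks none of the 142 as significant, where it marks 1.17% of the tested genes.

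**Figure D1:**
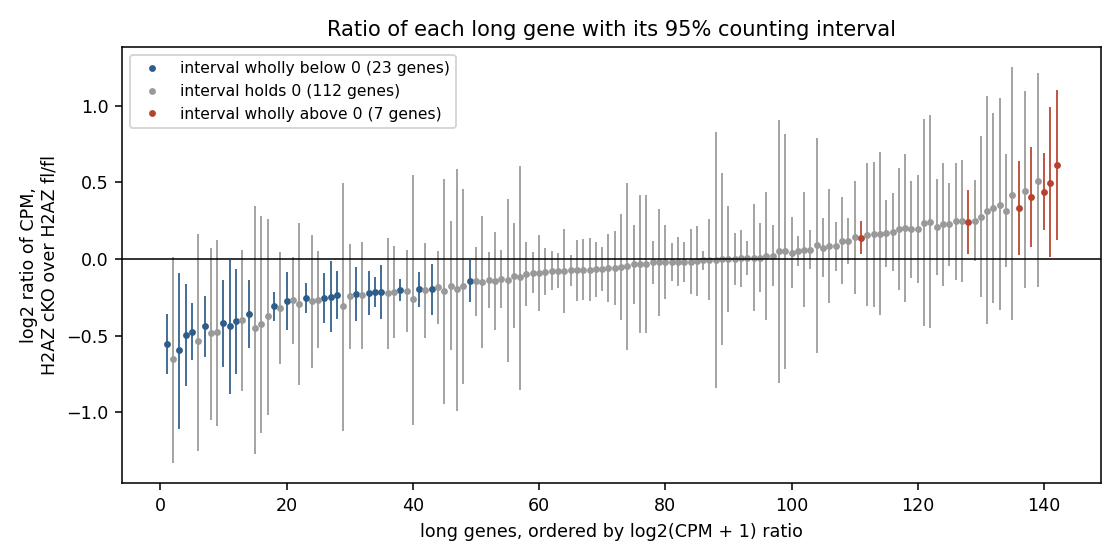
The log2 ratio of CPM (y axis, H2AZ cKO over H2AZ fl/fl) of each of the 142 long genes (x axis, ordered by the log2(CPM + 1) ratio), with points for the ratio and lines for the 95% counting interval. Blue marks the 23 genes whose interval lies wholly below 0, red the 7 wholly above it and grey the 112 whose interval holds 0.

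Span itself did not order the ratios among the long genes. The 107 genes of 500 kb to 1 Mb had a median log2 ratio of -0.07 with 70 below 0, and the 35 of 1 Mb or more had a median of -0.02 with 20 below 0. Across the 142 genes, which share the same libraries, Spearman's rank correlation of the log2 ratio with span was -0.00496 (Pearson's r 0.03 with log2 span). With the length of the mature transcript it was -0.35 (r = -0.36), and with the number of exons -0.31 (r = -0.35). Span and mature length were not related among the long genes (rank correlation 0.01), although they were across all 11889 annotated autosomal genes at 50 counts or more (rank correlation 0.60).

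The long genes with long messages were thus the lower ones. Of the 46 long genes with a mature transcript of 8 kb or more, 34 were below 0 and 12 above (median -0.12). Of the 32 at 6 to 8 kb, 23 were below 0 (median -0.05), and of the 47 at 4 to 6 kb, 28 (median -0.02). Of the 17 at 2 to 4 kb, a small class, 5 were below 0 and 12 above, and their median was 0.20.

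Genes of ordinary span followed a similar course. Among autosomal genes under 50 kb at 50 counts or more, the median log2 ratio was 0.10 for 2040 genes with mature transcripts under 2 kb, 0.03 for 3960 at 2 to 4 kb, -0.02 for 1775 at 4 to 6 kb, -0.06 for 432 at 6 to 8 kb and -0.08 for 164 at 8 kb or more. At 4 to 6 kb the medians were -0.02 for the long genes, -0.05 at spans of 200 to 500 kb and -0.03 at 50 to 200 kb. At 8 kb or more they were -0.12 for the long genes, -0.16 at 200 to 500 kb and -0.15 at 50 to 200 kb. At equal message length the medians of the long genes were therefore not the lowest in either class.

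**Figure D2:**
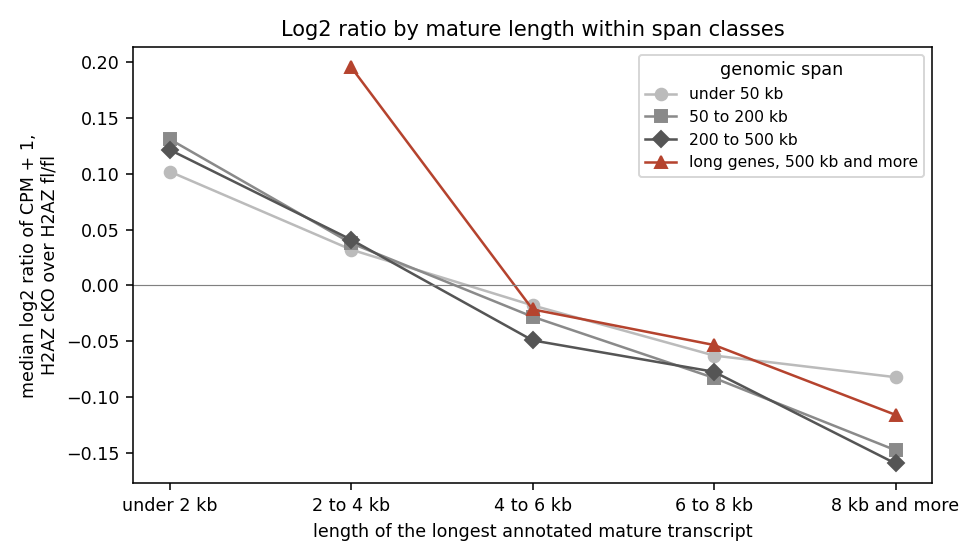
The median log2 ratio of CPM + 1 (y axis, H2AZ cKO over H2AZ fl/fl) by length of the longest annotated mature transcript (x axis), drawn for 4 classes of genomic span, with the long genes in red. In all 4 classes the median is lower where transcripts are longer, and at 8 kb or more the long genes stand at -0.12.

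Over all tested genes the median log2 ratio was 0.05 for 4171 genes under 10 kb, 0.01 at 10 to 50 kb, -0.03 at 50 to 100 kb, -0.05 at 100 to 200 kb and -0.05 at 200 to 500 kb. It was -0.07 for 140 genes at 500 kb to 1 Mb and -0.02 for 46 at 1 Mb or more, the left-out and sex-linked genes included. When a joint trend of the ratio with mature length, GC content and level, fitted over 14543 genes, was taken away, the same 7 medians lay between 0.00369 and 0.04, the highest at 1 Mb or more. The 142 long genes then had a median of 0.03, with 60 below 0 and 82 above. A single fit held the 3 properties, and what each contributes was not tested.

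**Figure D3:**
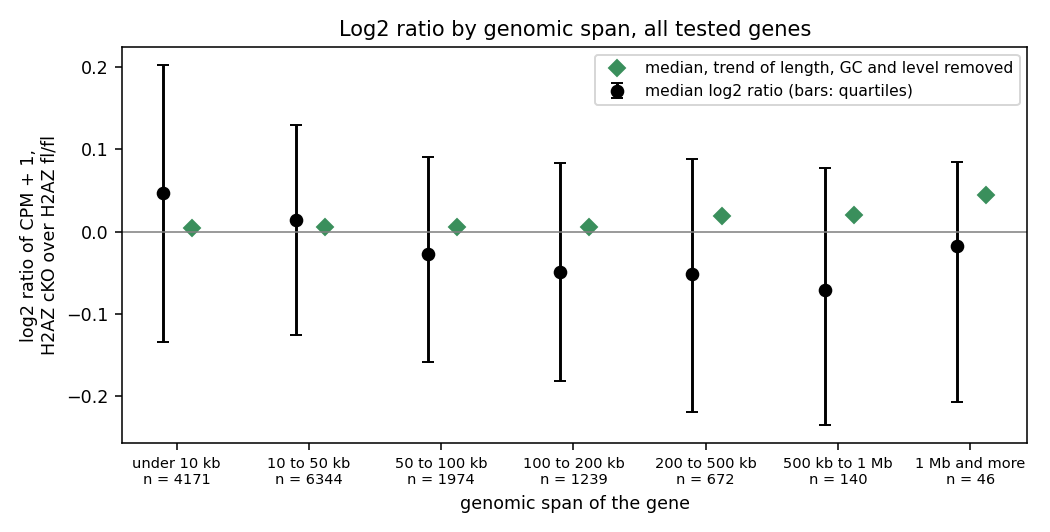
The log2 ratio of CPM + 1 (y axis, H2AZ cKO over H2AZ fl/fl) of all tested genes by class of genomic span (x axis, with the number of genes). Black points are medians with bars for the quartiles, and green diamonds are medians after removal of the joint trend with mature length, GC content and level, which all lie at or above 0.

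Adhesion molecules and synapse organisers are the largest role among the long genes, with 31 members, of which 17 were below 0 and 14 above (median log2 ratio -0.07). Counts of each role are to be read beside the 142 long genes, with 63.4% below 0, 16.2% of intervals below 1 and 4.93% above. Over all tested genes these shares were 49.0%, 11.2% and 12.6%. The teneurins, large transmembrane proteins that bind latrophilins across the synapse and guide the matching of neurons, were lower in all 3 cases. Tenm2 had 359 counts (41.2 CPM) in the H2AZ cKO, against 545 (60.4 CPM) in H2AZ fl/fl, a ratio of 0.681 (0.595 to 0.780). Tenm3 had 406 counts (46.6 CPM) against 584 (64.8 CPM), a ratio of 0.719 (0.632 to 0.818). Tenm4 had 1604 counts (184 CPM) against 2057 (228 CPM), a ratio of 0.807 (0.755 to 0.862). The 3 intervals exclude 1, also under scaling by total count, and the log2 ratios were -0.38, -0.32 and -0.13 with the joint trend removed. Their partner Adgrl3, a latrophilin, stood at 303 counts against 347, with an interval that holds 1 (0.772 to 1.06).

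The IgLON adhesion proteins Lsamp, Ntm and Opcml, membrane-anchored immunoglobulin proteins that shape neurite outgrowth, came to 963 counts in H2AZ cKO tissue and 924 in H2AZ fl/fl, a ratio of 1.08 (0.984 to 1.18). All 3 were above 0, though Ntm turned below it under each of the other scalings. Nlgn1, a postsynaptic adhesion protein, stood at 156 against 178 counts, with an interval that holds 1 (0.727 to 1.13).

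Paralogs did not always stand on the same side of 1, though no difference between paralogs was tested and the Csmd intervals overlap. Among the complement-like Csmd proteins, Csmd1 had 77 counts against 108, a ratio of 0.738 (0.543 to 0.997), while Csmd2 stood at 1.01 (0.861 to 1.18) and Csmd3 at 1.21 (0.842 to 1.74). Cntnap2, a transmembrane protein that anchors potassium channels along axons, was above its control at 1459 counts against 1372, a ratio of 1.10 (1.02 to 1.19). With its relative Cntnap5a it summed to 1496 against 1408 counts, a ratio of 1.10 (1.02 to 1.18). Kirrel3, an immunoglobulin adhesion protein, had 408 against 357 counts, a ratio of 1.18 (1.02 to 1.37). Under total count scaling the single-gene intervals of Cntnap2 and Kirrel3 hold 1. Mdga2, which binds neuroligins, had 47 against 68 counts, and Lrrtm4, a postsynaptic ligand of heparan sulphate proteoglycans, 50 against 38. Lingo2, a leucine-rich repeat protein, stood at 51 against 42. These 3 intervals hold 1. Ctnna2, which ties cadherins to actin in neurons and is among the 6 long genes of highest CPM, stood at 1761 counts (202 CPM) against 1756 (195 CPM), a ratio of 1.04 (0.971 to 1.11).

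**Figure D4:**
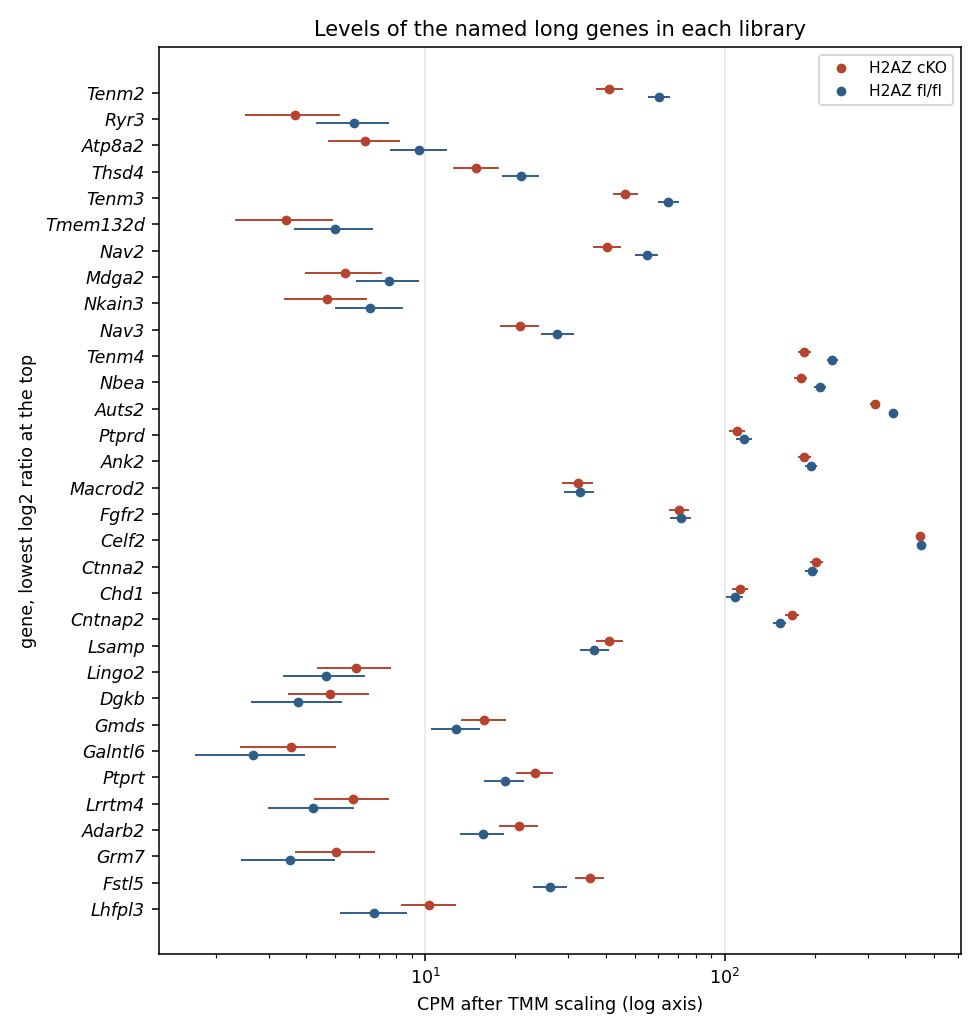
Levels in CPM after TMM scaling (x axis, log axis) of the long genes named for the lowest or highest ratio, the highest level or the longest span, ordered from the lowest log2 ratio at the top. Red points are the H2AZ cKO and blue points H2AZ fl/fl, with lines for exact 95% Poisson intervals of each count. Tenm2 and Tenm3 stand apart between the genotypes, while Celf2, at 447 CPM against 450 CPM, does not.

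Scaffolds of the synapse and the machinery of vesicle release were below 0 for 11 of 14 (median -0.08), against 63.4% of the 142 long genes. Magi1 and Magi2, scaffolds with several PDZ domains, together had 1597 counts in H2AZ cKO tissue and 1923 in H2AZ fl/fl, a ratio of 0.859 (0.804 to 0.919), with each interval below 1. Nbea, which sorts membrane proteins to the synapse, had 1559 counts (179 CPM) against 1870 (207 CPM), a ratio of 0.863 (0.806 to 0.923). Dlg2, the scaffold known as PSD-93, had 113 against 146 counts and the syntrophin gene Sntg1 38 against 51, and both intervals hold 1. Dlgap1, a partner of the PSD-95 scaffold, stood on the other side at 244 against 216 counts, also with an interval that holds 1. With Dlgap2 it summed to 275 against 253 counts, a ratio of 1.12 (0.945 to 1.34). The calcium sensor of release, Syt1, was close to equal at 934 against 978 counts, a ratio of 0.988 (0.902 to 1.08).

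Channels, neurotransmitter receptors and transporters were below 0 for 14 of 21 (median -0.10), against 63.4% of the 142 long genes. Most genes of this role had low counts. The ryanodine receptors Ryr2 and Ryr3, which release calcium from internal stores, together had 88 counts in H2AZ cKO tissue and 123 in H2AZ fl/fl, a ratio of 0.740 (0.556 to 0.981), but neither interval alone excludes 1. Atp8a2, a lipid flippase, had 55 against 86 counts, a ratio of 0.662 (0.463 to 0.939), and is 1 of the genes that RefSeq puts under 500 kb. Dpp6, an auxiliary subunit of Kv4 potassium channels, had 482 against 585 counts, a ratio of 0.852 (0.754 to 0.963). These 2 are the only intervals of the role below 1, and none lies above it. Grm7, a metabotropic glutamate receptor, had 44 against 32 counts, and Nkain3, which interacts with the sodium pump, 41 against 59, both with intervals that hold 1. The metabotropic receptor genes Grm5 and Grm7 together had 167 against 154 counts, a ratio of 1.12 (0.896 to 1.41).

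Against 63.4% of the 142 long genes, growth factor signalling, receptor phosphatases and secreted factors were below 0 for 13 of 19 (median -0.05). Fstl5, a secreted follistatin-like protein, was the highest of them, with 309 counts (35.5 CPM) in H2AZ cKO tissue, against 236 (26.2 CPM) in H2AZ fl/fl, a ratio of 1.35 (1.14 to 1.61). Thsd4, a protein of the extracellular matrix, had 129 against 188 counts, a ratio of 0.710 (0.563 to 0.893), and Adgrv1, a very large adhesion receptor, 295 against 391, a ratio of 0.781 (0.669 to 0.910). The 6 receptor phosphatase genes split evenly, with 3 below and 3 above 0, and summed to 2389 against 2471 counts, a ratio of 1.0002 (0.945 to 1.06). Among them Ptprt stood at 1.26 (1.02 to 1.56, which holds 1 under total count scaling) and Ptprd at 0.948 (0.868 to 1.04). The neurotrophin receptor gene Ntrk3 (863 against 950 counts) and the neuregulin receptor gene Erbb4 (235 against 244) have intervals that hold 1. Nell1, a secreted glycoprotein, had 31 against 43 counts.

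Kinases, phosphodiesterases and GTPase regulators were below 0 for 10 of 12, against 63.4% of the 142 long genes. Of their intervals 2 lay below 1 and none above. Their median was the lowest of the roles with 5 or more genes, -0.19, or -0.07 with the joint trend removed. With that trend removed the median was -0.04 for cytoskeleton, polarity and trafficking and -0.01 for synaptic scaffolds and vesicle release. It turned above 0 for adhesion molecules (0.02), channels (0.03), growth factor signalling (0.05), transcription regulators (0.06) and genes given no role (0.09). For enzymes it was 0.08. Kalrn, an exchange factor for small GTPases at the synapse, had 556 counts against 686, a ratio of 0.839 (0.748 to 0.939), and Rabgap1l, a Rab GTPase regulator, 502 against 603, a ratio of 0.861 (0.764 to 0.971). The cyclic AMP phosphodiesterases Pde4b and Pde4d summed to 272 against 334 counts, a ratio of 0.843 (0.715 to 0.992), with neither interval alone excluding 1. Rgs6, which shuts off G protein signals, had 71 against 97 counts, and Dgkb, a diacylglycerol kinase, 42 against 34. Both intervals hold 1.

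Genes of the cytoskeleton, polarity and trafficking were below 0 for 8 of 12 (median -0.17), against 63.4% of the 142 long genes. Of the intervals of this role 5 lay below 1 and none above, against 16.2% and 4.93% of the 142. The neuron navigators Nav2 and Nav3, which bind the growing ends of microtubules, together had 532 counts in H2AZ cKO tissue and 743 in H2AZ fl/fl, a ratio of 0.741 (0.661 to 0.829). Frmd4a, a polarity scaffold, had 1502 counts (172 CPM) against 1856 (206 CPM), a ratio of 0.837 (0.782 to 0.897). Pard3, the polarity protein that organises the apical junctions of progenitors, had 541 against 642 counts, a ratio of 0.872 (0.776 to 0.979), while its paralog Pard3b stood at 113 against 100 with an interval that holds 1. The exocyst subunit gene Exoc4 was at 0.903 (0.822 to 0.993). Ank2, an ankyrin that links membrane proteins to spectrin, was at 1606 against 1750 counts, a ratio of 0.949 (0.887 to 1.02), and Vps13b, a lipid transfer protein of the Golgi, at 190 against 237.

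**Figure D5:**
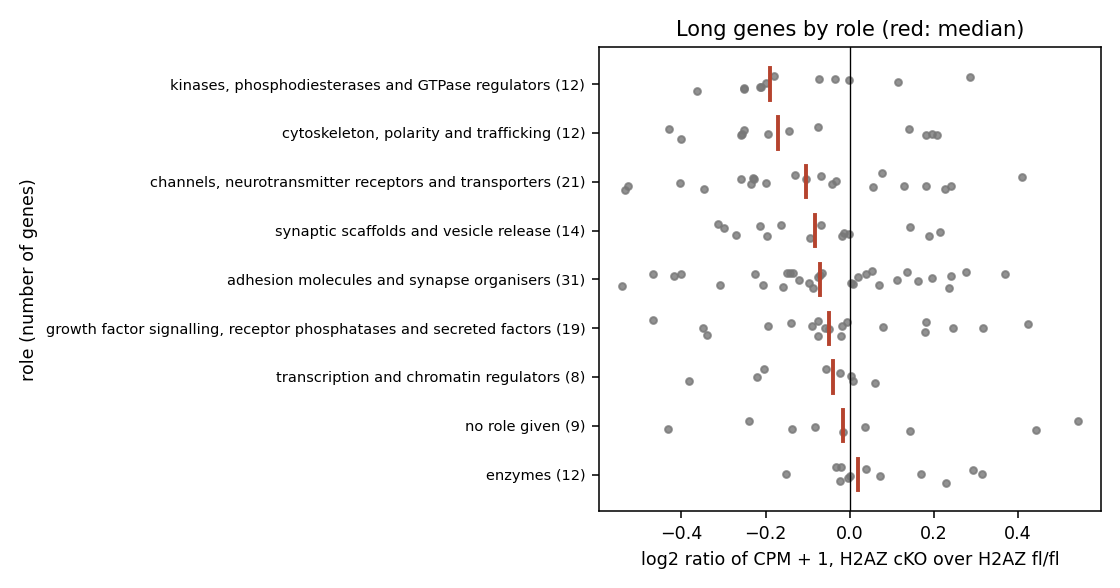
The log2 ratio of CPM + 1 (x axis, H2AZ cKO over H2AZ fl/fl) of each long gene by role (y axis, number of genes in brackets), for roles with at least 5 genes, with 1 point per gene and a red line at the median. The medians run from -0.19 for kinases, phosphodiesterases and GTPase regulators to 0.02 for enzymes, and points of every role fall on both sides of 0.

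Transcription and chromatin regulators number 8 among the long genes. Of these 5 were below 0 (median -0.04), against 63.4% of the 142. For 3 the interval lay below 1, against 16.2% of the 142. Auts2, a neurodevelopmental factor that works with a variant Polycomb complex, had 2754 counts (316 CPM) in the H2AZ cKO, against 3282 (364 CPM) in H2AZ fl/fl, a ratio of 0.868 (0.825 to 0.914). Esrrg, an orphan nuclear receptor, had 124 against 170 counts, a ratio of 0.755 (0.594 to 0.957). Zbtb20, a zinc finger repressor, had 741 against 895 counts, a ratio of 0.857 (0.776 to 0.945), and has a mature transcript of 26.9 kb. Its log2 ratio of -0.22 turned to 0.03 with the joint trend removed, which happened to no other long gene whose interval excludes 1. The remaining regulators Npas3, Sox6, Camta1, Smyd3 and Chd1 had intervals that hold 1.

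RNA-binding proteins number 3 and stood between -0.01 and 0.38. Celf2, a regulator of splicing, was the most abundant per length of the long genes, at 50.4 CPM per kb of mature transcript in the H2AZ cKO and 50.8 in H2AZ fl/fl, and its ratio was 0.993 (0.95 to 1.04). Adarb2, a brain protein related to the RNA-editing adenosine deaminases, had 179 against 140 counts, a ratio of 1.32 (1.05 to 1.66). Rbms3 stood at 97 against 99 counts. Snhg14, the imprinted host transcript of snoRNAs that runs antisense through Ube3a, had 610 against 744 counts, a ratio of 0.848 (0.761 to 0.945), and reads of such antisense pairs cannot be told apart without strand.

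Enzymes were below 0 in 5 of 12 cases, with a median of 0.02 and no interval that excludes 1. Gmds, which makes GDP-fucose, had 137 counts against 114, Galntl6, a glycosyltransferase, 31 against 24, and Wwox, an oxidoreductase at a fragile site, 116 against 101. B3galt1, a galactosyltransferase, had 272 against 249 counts. Macrod2, a hydrolase that removes ADP-ribose and is among the longest of the genes, had 281 against 295 counts, a ratio of 0.985 (0.834 to 1.16). The 9 genes given no role were below 0 in 5 cases. Lhfpl3, a tetraspan membrane protein, was the highest of all 142, with 90 counts (10.3 CPM) against 61 (6.76 CPM), a ratio of 1.53 (1.09 to 2.15), which the CPM + 1 scale brings to a log2 ratio of 0.54, short of 1.5-fold. The next highest was 5730522E02Rik, with 86 counts against 63, a ratio of 1.41 (1.01 to 1.99), an interval that holds 1 under total count scaling. Ccser1 stood at 0.844 (0.719 to 0.989), Tmem132d at 30 against 45 counts, and Thsd7b at 65 against 60.

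Depth limits how much can be read from single genes. The 45 long genes with under 200 summed counts had log2 ratios from -0.53 to 0.54 and 4 intervals that exclude 1. The 31 with 1000 or more ranged from -0.31 to 0.14 with 13 such intervals, 12 of them below 1. Over all tested genes, at any depth, 11.2% of intervals lay below 1 and 12.6% above. Higher counts give narrower intervals, and the shares over other genes of like depth were not computed. Per kb of mature transcript the long genes had low levels, at a median of 3.33 CPM per kb over both libraries, against 10.9 for the other genes. Of the 142, 63 overlap another gene of the table, 31 on the same strand and 46 on the opposite one. Those that overlap had a median of -0.07 with 44 below 0, and the 79 that do not overlap had a median of -0.02 with 46 below 0.

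The factors that carry the polymerase through long genes were examined as a list of 53 genes, written with earlier results of these data known. Of 52 tested, 32 were below 0 and 20 above (median log2 ratio -0.04), and none reached 1.5-fold on the CPM + 1 scale. The interval lay below 1 for 14 and above 1 for 10. Over all tested genes 49.0% were below 0, and 11.2% of intervals lay below 1 and 12.6% above. The list had a median level of 107 CPM in the H2AZ cKO, against 28.3 CPM over all tested genes, and higher counts give narrower intervals. The topoisomerases parted: Top1 stood at 2900 counts in the H2AZ cKO and 3259 in H2AZ fl/fl, a ratio of 0.921 (0.875 to 0.968), and Top2b at 4416 against 4152, a ratio of 1.10 (1.05 to 1.15). Sfpq, an RNA-binding protein needed for transcription of long neuronal genes in the mouse, was at 1.03 (0.995 to 1.07).

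Subunits of the elongation complexes stood on both sides. The 6 farthest from 0 were Aff1, a scaffold of the super elongation complex, at 75 counts against 120 (0.647, 0.478 to 0.870), the elongation factor gene Ell2 at 10 against 16, its partner Eaf1 at 242 against 309 (0.810, 0.682 to 0.962), the cyclin genes Ccnt1 at 446 against 560 (0.824, 0.726 to 0.935) and Ccnt2 at 880 against 1087 (0.838, 0.765 to 0.916), and Leo1, of the Paf1 complex, at 558 against 481 (1.20, 1.06 to 1.36). Cdk9, the kinase that the T cyclins activate, stood at 1011 against 906 counts, a ratio of 1.15 (1.05 to 1.26). The kinase and its cyclins thus lay on opposite sides of 1. Cdk9, Top1, Top2b and Sfpq were named after their values were seen.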

How the data were processed

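RNA sequencing libraries were made from Trizol-extracted RNA with a TruSeq kit, per the labels' protocols. Bowtie2 2.2.3, TopHat2 2.0.12, HTSeq 0.6.0 and the build mm9 are named in the submitters' processing notes, with no role or order. The deposited positions instead match GRCm38: 79.1% are identical to GENCODE M21. Whether counting used strand, no source used here says. The deposited counts are raw, 1 column per genotype. The column headed WT, per the file headers, was taken as H2AZ fl/fl. The deposited CPM values are these counts over the column's total, with 0 written as 0.5 read. The authors' fold (a ratio), log2 fold change and p-value columns compare those 2 columns by a test not stated.

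Symbols were matched for 19112 genes and 90 kept their identifier. Counts were scaled with TMM factors of 0.986 and 1.01 (edgeR 4.0.16, R 4.3.3), with no filter beyond 1 CPM in the higher library. At 3 counts, the limit that a count of 0 allows, the level is 0.344 CPM for H2AZ cKO and 0.333 CPM for H2AZ fl/fl. Intervals and the trend used scipy 1.17.1 and statsmodels 0.14.6 in Python 3.11.15, and the steps were tested on simulated data. No molecular identifiers are named in the labels, so intervals and this limit cover counting error alone. Alternatives removed the joint trend or changed the pseudocount, floor, scaling (DESeq2 1.42.0 size factors among them), span and count minimum and overlap. The long genes, roles and lists were chosen with earlier results of these data known, and 1 alternative, leaving out genes that RefSeq puts under 500 kb, was added after seeing the data. Named are the 10 lowest and 10 highest, the 6 most abundant and 6 longest, up to 4 per role by absolute log2 ratio (predicted genes with Gm and Rik symbols are passed over in these ranks), the 3 on each side of the span minimum, 6 of the polymerase list, H2afz and Setd2. 5730522E02Rik and other genes outside the rule were named for their value, family or role after their values were seen. Some items are not reported here.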

Additional observations from a re-analysis of the deposited data

How the results depend on the processing

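No paired analysis was possible because there is 1 library per genotype and the labels carry no replicate numbers. The median log2 ratio of the long genes, -0.06, was -0.10 with total count scaling or the CPM as deposited, which move the median of all genes by -0.04, and 0.0298 with the joint trend of length, GC content and level removed, an alternative that takes out any difference that goes with those properties. Its distance from genes under 10 kb, -0.10, was -0.0659 with no level floor and turned to 0.0261 with the trend removed, and the log2 ratio of Zbtb20, -0.22, to 0.0303. The distance kept its sign under the other alternatives. With a pseudocount of 0.1 CPM, 2 genes (Ryr3 and Atp8a2) were 1.5-fold lower and 1 (Lhfpl3) higher. Total count scaling or the CPM as deposited left 3 intervals above 1 in place of 7. A span minimum of 300 kb gave 386 genes, with 241 below 0, 4 and 1 past 1.5-fold lower and higher, and 73 intervals below and 20 above 1. A minimum of 1 Mb gave 35 genes, with 20 below 0, 5 intervals below and 2 above 1. Without overlapping genes 79 were left, with 46 below 0, 13 intervals below and 2 above 1. Taking the excluded names in gave 2 that were 1.5-fold lower. These counts move with the number of genes taken. Leaving out the 6 genes that RefSeq puts under 500 kb left 136, with 86 below 0 and a median of -0.06.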
